A study of Mus musculus with 6 samples.

Results

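The 10 genes examined here are markers of pericytes and myofibroblasts: Acta2, Tagln, Des, Vim, Pdgfra, Pdgfrb, Fn1, Postn, Sparc and Lox. They were chosen by symbol, with earlier results of these data known, and all 10 were found among the 24422 genes listed in the count tables. All 10 also passed the filter on low counts that left 15171 genes for testing. The libraries came from whole kidneys of C57BL/6 mice at postnatal day 60 (P60) on an iron sufficient diet (220 ppm iron). The 3 controls were labelled wild type. The 3 knockouts were labelled Tfr1f/f;KspCre, and these delete floxed exons of the transferrin receptor gene with a Cre driven from Ksp-cadherin sequences. That driver is active in epithelia of the distal nephron, not in interstitial or vascular cells. The comparison asks which of these transcripts differed between kidneys labelled as lacking TfR1 in distal tubules and controls.

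Pericytes wrap capillaries and carry the receptor PDGFR-beta, whereas fibroblasts of the interstitium carry PDGFR-alpha as well. In injured kidneys both kinds of cell can become myofibroblasts, which build contractile fibers of smooth muscle actin and deposit matrix. Arterial smooth muscle and mesangial cells share much of the same program, and several of the genes (Vim, Fn1 and Sparc above all) are also transcribed in podocytes, endothelium, macrophages or regenerating tubules.

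The libraries held between 11501053 and 21001341 counts, the smallest being knockout 3. Some single libraries stood apart, which bears on every result below. Control 2 held 52 counts of Xist and 518 to 1451 counts of each of 4 Y-linked genes, whereas Xist had 10458 to 23845 counts in the other 5 libraries and those genes at most 4. Knockout 1 lay between the groups, at 9.67 on the first principal component of log2 CPM, with controls at -72.6 to -53.2 and the other knockouts at 82.1 and 88.6. The counts of Tfrc, the gene of TfR1, ran 2783, 2856 and 1032 over controls 1 to 3 and 4368, 1713 and 530 over knockouts 1 to 3, so that the groups overlapped. The library labelled knockout 1 had the highest Tfrc level of the 6, at 214.4 CPM against 62 to 167.9 CPM in controls, although its label names a deletion in that gene. Since these are counts over the whole gene in whole kidneys, where only some cells carry the deletion, they gave no check of the labels. The submitters describe the 3 libraries of each group as biological replicates.

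Of the 10 genes, 7 were higher in knockouts in edgeR's quasi-likelihood test (Benjamini-Hochberg adjusted p under 0.05 over all 15171 genes): Acta2, Tagln, Des, Vim, Fn1, Sparc and Lox. Pdgfrb, Postn and Pdgfra did not pass. Among all genes tested, 10.6% were called higher and 17.2% were called in either direction. Of the 10 genes, 9 had an unadjusted p under 0.05, as had 38.6% of all genes. All 7 called genes changed at least 2-fold, and 8.67% of all genes were called higher at that size. All 3 knockouts lay above all 3 controls for 8 of the 10 genes, a pattern found in that direction for 23.8% of all genes tested. The median log2 fold change of the 10 genes was 2.71, and that of all genes tested was 0.0209. Together the 10 genes took between 0.0486% and 0.0773% of the counts of a control library, 0.137% of knockout 1, 0.399% of knockout 2 and 0.553% of knockout 3. In whole kidneys, more cells of a type and more RNA per cell cannot be told apart.

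The calls depended on 5 of the 6 libraries. In each of the 5 fits that left out 1 control, knockout 2 or knockout 3, 0 of the 10 genes were called (edgeR), although 9 had an unadjusted p under 0.05 each time. Without controls 1, 2 and 3, 31%, 27.4% and 30.9% of all genes had such a p and 0% were called, and without knockouts 2 and 3, 29.9% and 28.9% had one while 0.474% and 0.013% were called. Without knockout 1, 9 of the 10 genes and 34.4% of all genes were called. Over the same 5 fits the 9 genes other than Pdgfra had log2 fold changes of 0.73 to 3.58, with adjusted p of 0.0592 to 0.167. With the ratio of Xist to Y-linked counts as a covariate 0 genes were called in edgeR, and 9 of the 10 and 27.8% of all genes had an unadjusted p under 0.05. The log2 fold changes moved little under the covariate. Their median over the 10 genes was 2.59, with 3.08 for Acta2, 2.88 for Fn1 and 3.37 for Lox. Control 2 alone held many Y-linked counts, so the covariate mainly sets that library apart. The fit without control 2 gave close values (median 2.53, with 3.02 for Acta2 and 2.83 for Fn1). Neither fit can separate sex from that 1 library. DESeq2's Wald test, the tool named by the study, called 9 of the 10 genes and 32.2% of all genes. With limma-voom 4 of the 10 (Tagln, Vim, Fn1 and Sparc) and 13.4% of all genes were called. In edgeR, scaling by DESeq2 size factors, by the upper quartile or by library size alone, 7, 8 and 9 of the 10 were called, beside 17.8%, 18.2% and 24% of all genes. Without a filter, with at least 10 counts in every library and with the newer quasi-likelihood version 7 were called each time, beside 12.7%, 16.6% and 18.1%.

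**Figure D1:**
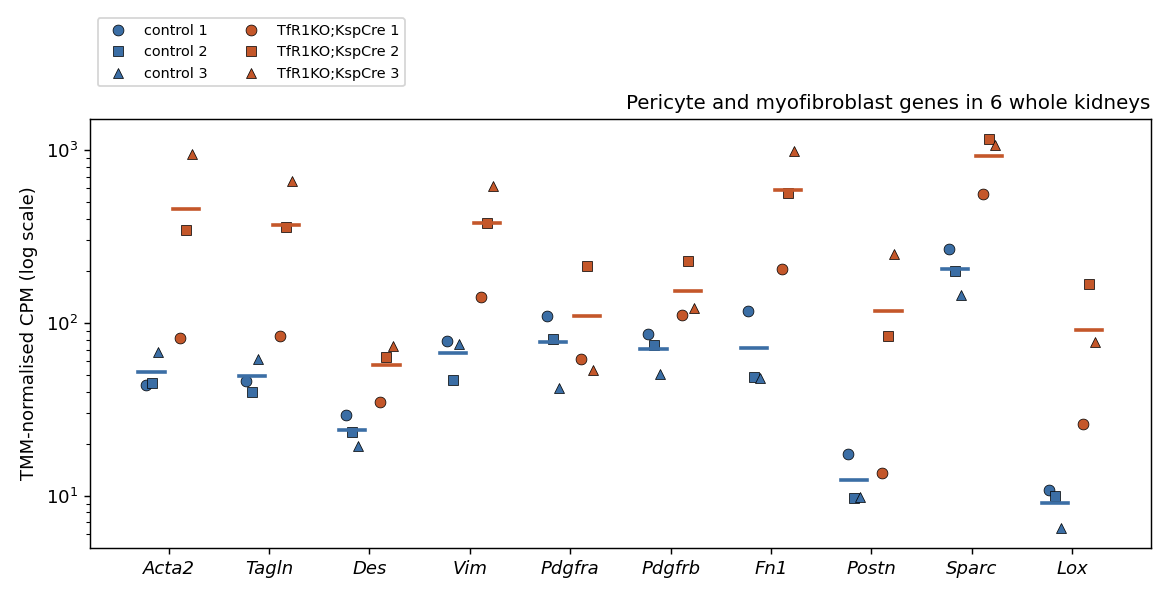
TMM-normalised CPM (log axis) of the 10 genes in each of the 3 control and 3 TfR1KO;KspCre libraries; marker shapes give the replicate number and bars the group mean. The knockouts lie above all controls for 8 genes, and overlap them for Pdgfra and Postn.

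The contractile genes came first. Acta2 encodes smooth muscle alpha-actin, the defining filament of myofibroblasts (ENSMUSG00000035783; chromosome 19, 34315580 to 34329826, minus strand, mm9). It was at 43.9, 44.7 and 68.3 CPM (counts per 1e+06, TMM-normalised) in controls 1 to 3 and at 81.4, 343.6 and 944.8 CPM in knockouts 1 to 3. The groups did not overlap, and knockout 3 held 11.6 times the level of knockout 1. The mean was 52.3 ± 13.9 CPM in the controls against 456.6 ± 442.6 CPM in the knockouts (SD, n = 3 each), with 3.13 as the log2 fold change (SE 0.81, adjusted p 0.0445 by edgeR). Without knockout 3 the log2 fold change was 2.02, the lowest of 16 alternatives, over which the adjusted p ran from 0.000173 to 0.144.

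Tagln (ENSMUSG00000032085; chromosome 9, 45737711 to 45744141, minus strand) encodes transgelin, an actin-binding protein of smooth muscle. Its levels were 45.9, 39.7 and 61.7 CPM in controls and 84.1, 361 and 665.4 CPM in knockouts. The order of the 3 knockouts was therefore that of Acta2, and the groups again did not overlap. From 49.1 ± 11.3 to 370.2 ± 290.7 CPM (SD, n = 3 each), the log2 fold change was 2.91 (SE 0.69, adjusted p 0.0378 by edgeR), and it was 2.18 without knockout 3 (adjusted p 6.91e-05 to 0.130 over 16 alternatives). Pcsk7 overlaps Tagln on the opposite strand. Since the strand setting of the counting is not given in the sources used here, reads of that overlap cannot be told apart. Raw counts of Tagln per count of Acta2 lay between 0.704 and 1.05 in all 6 libraries.

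The sequence upstream of Acta2 is shown because the transcription factor SRF drives contractile genes through a 10-base element, the CArG box, and because SRF's muscle partner myocardin is among the related genes below. RefSeq promoter windows (GRCm38.p6, 250 bases before to 50 after a start) were at hand for 6 of the 10 genes in 7 windows, and not for Tagln, Fn1, Pdgfrb and Lox. The strict CArG box was in 0 of the 7 windows and in 1.63% of all 32851 windows. With 1 of its 6 core bases free to be other than A or T, it was in 1 of the 7 (Acta2, with 2 copies) and in 9.98% of all. The TEAD element CATTCC, read on both strands, was in 1 of the 7 (Acta2) and in 14.7% of all, and TATAA, read on both strands, was in 4 of the 7 (Acta2, Pdgfra, Postn and Vim) and in 24.9% of all. The 150 bases before the start are given 5′ to 3′ on the strand of the gene for Acta2 (chr19:34255374-34255523, minus strand), for the downstream of 2 starts of Postn (chr3:54360957-54361106, plus strand) and for Vim (chr2:13574161-13574310, plus strand). Acta2 and Postn had the widest spread among knockouts, and Vim had a narrower one. Capitals mark the relaxed CArG boxes and the CATTCC element (as its reverse complement) in Acta2, and TATAA or its reverse complement in Postn and Vim.
Acta2: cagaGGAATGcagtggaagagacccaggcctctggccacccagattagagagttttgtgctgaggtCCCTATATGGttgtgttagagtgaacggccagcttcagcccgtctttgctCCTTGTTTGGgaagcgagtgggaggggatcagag
Postn: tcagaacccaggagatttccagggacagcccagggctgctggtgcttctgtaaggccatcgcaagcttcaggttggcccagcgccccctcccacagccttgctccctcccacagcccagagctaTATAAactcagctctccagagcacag
Vim: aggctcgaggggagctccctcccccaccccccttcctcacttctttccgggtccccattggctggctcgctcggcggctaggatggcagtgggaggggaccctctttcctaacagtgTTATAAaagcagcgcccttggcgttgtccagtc
The relaxed CArG boxes of Acta2 begin 84 and 34 bases upstream of the annotated start, and its CATTCC element 146 bases upstream. The TATAA of Acta2 lies at bases 11 to 15 with that start counted as base 1, outside the stretch shown. A match is a match of letters and says nothing on binding in these kidneys.

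Des and Vim encode the type III intermediate filaments desmin and vimentin. Desmin marks smooth muscle, mesangial cells and pericytes. Des (ENSMUSG00000026208; chromosome 1, 75356904 to 75365154, plus strand) was at 29.2, 23.3 and 19.3 CPM in controls and 34.9, 63.1 and 73.5 CPM in knockouts. The groups were separate but close, with knockout 1 just above control 1. The log2 fold change was 1.25 (SE 0.30, adjusted p 0.0380 by edgeR), the smallest among the 7 called genes, and it ranged from 1.03 to 1.53 over 16 alternatives (adjusted p 0.00224 to 0.128). A noncoding transcript, Gm15179, overlaps Des on the opposite strand.

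Vimentin is found in most mesenchymal cells, in podocytes and in dedifferentiated tubule cells. Vim (ENSMUSG00000026728; chromosome 2, 13495554 to 13504453, plus strand) was at 78.8, 46.8 and 75.2 CPM in controls and 140.5, 380 and 619.4 CPM in knockouts. The lowest knockout stood well clear of the highest control. From 66.9 ± 17.5 to 379.9 ± 239.5 CPM (SD, n = 3 each) the log2 fold change was 2.51 (SE 0.53, adjusted p 0.0326 by edgeR), with a range of 1.96 to 2.89 over 16 alternatives (adjusted p 3.00e-05 to 0.121). Without control 2 the log2 fold changes of Acta2, Tagln, Des and Vim were 3.02, 2.77, 1.23 and 2.30.

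The PDGF receptors, tyrosine kinases through which platelet-derived growth factors drive growth and migration of pericytes and fibroblasts, did not pass the test. Pdgfrb (ENSMUSG00000024620, on chromosome 18) was at 86.4, 74.2 and 50.3 CPM in controls and 111.7, 226.6 and 121.4 CPM in knockouts. All 3 knockouts lay above the controls, and knockout 2 stood highest. The log2 fold change was 1.12 (SE 0.33, adjusted p 0.0574 by edgeR), 0.73 without knockout 2 and 1.16 without control 2. Pdgfrb passed with library size alone, with upper quartile scaling, under DESeq2's Wald test and without knockout 1, and its adjusted p over 16 alternatives ran from 0.0112 to 0.150.

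Pdgfra (ENSMUSG00000029231; chromosome 5, 75548316 to 75594229, plus strand) was at 110.2, 81.1 and 42.3 CPM in controls and 61.6, 214.2 and 53.5 CPM in knockouts. Only knockout 2 lay above the controls, and knockouts 1 and 3 lay within their range. The log2 fold change was 0.50 (SE 0.59, adjusted p 0.567 by edgeR), and it was not called in any of 16 alternatives (adjusted p 0.350 to 0.855). Without knockout 2 the value turned to -0.44, and without control 2 it was 0.52. Per count of Pdgfrb, Pdgfra had 1.27, 1.09 and 0.840 raw counts in the controls, against 0.552, 0.945 and 0.440 in the knockouts.

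Of the 4 matrix genes, 3 were called. Fn1 encodes fibronectin, the scaffold on which collagen is laid down (ENSMUSG00000026193; chromosome 1, 71632094 to 71699774, minus strand). It was at 117, 48.8 and 48.3 CPM in controls and 205.4, 563.8 and 993.9 CPM in knockouts. Control 1 lay well above the other controls and still below every knockout. From 71.4 ± 39.5 to 587.7 ± 394.8 CPM (SD, n = 3 each) the log2 fold change was 3.04 (SE 0.65, adjusted p 0.0326 by edgeR). It was 2.43 without knockout 3 and 3.58 without control 1, and the adjusted p ran from 8.81e-06 to 0.121 over 16 alternatives. A part of Fn1 is overlapped by Apol7d on the opposite strand in this annotation.

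Sparc encodes osteonectin, a collagen-binding matrix glycoprotein that endothelial cells also make. Sparc (ENSMUSG00000018593; chromosome 11, 55208002 to 55233582, minus strand) was at 267.9, 200.1 and 144.7 CPM in controls and 554.4, 1162 and 1074 CPM in knockouts. Knockout 1 was well above every control, and knockouts 2 and 3 were close to each other. The log2 fold change was 2.19 (SE 0.37, adjusted p 0.0282 by edgeR), the smallest adjusted p among the 10 genes. Over 16 alternatives it ranged from 1.99 to 2.47 (adjusted p 2.67e-07 to 0.118).

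Lox encodes lysyl oxidase, a copper enzyme that cross-links collagen and elastin. Lox (ENSMUSG00000024529, on chromosome 18) was at 10.7, 9.99 and 6.48 CPM in controls and 26.1, 168.1 and 77.5 CPM in knockouts. In contrast to Acta2, knockout 2 was the highest, and the groups did not overlap. From 9.07 ± 2.27 to 90.5 ± 71.9 CPM (SD, n = 3 each) the log2 fold change was 3.32 (SE 0.65, adjusted p 0.0308 by edgeR), which was 2.50 without knockout 2 (adjusted p 2.03e-06 to 0.118 over 16 alternatives).

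Postn encodes periostin, a matricellular protein of fibrotic stroma (ENSMUSG00000027750; chromosome 3, 54165031 to 54194961, plus strand). Controls held 350, 164 and 164 counts of it and knockouts 275, 1678 and 3288, or 17.4, 9.64 and 9.85 CPM and 13.5, 84.2 and 251.9 CPM. Knockout 1 lay within the control range, and knockout 3 held 18.7 times its level. The log2 fold change was 3.24 (SE 0.94), second only to Lox, but it did not pass (edgeR, adjusted p 0.0562). It was 1.99 without knockout 3, and the gene was called in 3 of 16 alternatives: without knockout 1 (log2 fold change 3.76), with library size alone and under DESeq2's Wald test (adjusted p 0.000627 to 0.179 over the 16). Without control 2 the log2 fold changes of Fn1, Sparc, Lox and Postn were 2.83, 2.17, 3.38 and 3.09.

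**Figure D2:**
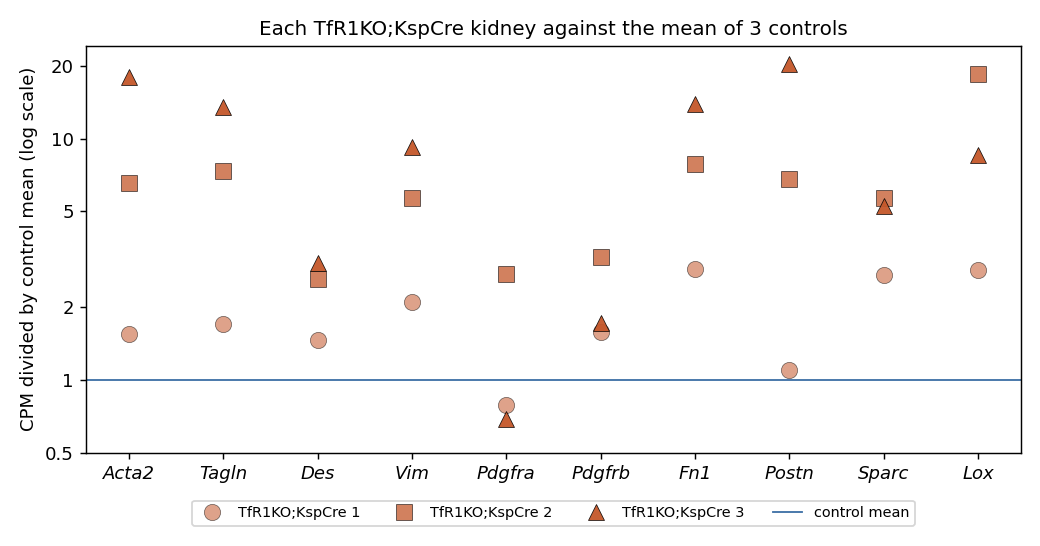
CPM of each TfR1KO;KspCre library divided by the mean of the 3 controls (log axis, line at 1). Knockout 3 is highest for Acta2, Tagln, Des, Vim, Fn1 and Postn, knockout 2 for Pdgfra, Pdgfrb, Sparc and Lox, and knockout 1 is the lowest of the 3 for all but Pdgfra.

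The 3 knockouts thus differed from one another more than the 3 controls did. Against the control mean, knockout 1 ranged from 0.792 times (Pdgfra) to 2.88 times (Fn1), knockout 2 from 2.64 times (Des) to 18.5 times (Lox) and knockout 3 from 0.687 times (Pdgfra) to 20.5 times (Postn). Knockout 2 exceeded every control for 10 of the 10 genes, knockout 3 for 9 and knockout 1 for 8. The highest knockout stood above the lowest by 2.03 times for Pdgfrb and by 18.7 times for Postn, whereas controls differed by at most 2.61 times (Pdgfra). Knockout 3 was highest for 6 genes, among them the contractile, filament and fibronectin transcripts. Knockout 2 was highest for both PDGF receptors, Sparc and Lox.

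Ratios of raw counts within a library, chosen after the values were seen, do not depend on library size. For each count of Pdgfrb, controls held 0.508, 0.602 and 1.36 counts of Acta2, against 0.729, 1.52 and 7.78 in knockouts. For each count of Des, controls held 1.51, 1.91 and 3.53 counts of Acta2, against 2.33, 5.45 and 12.9 in knockouts. Both ratios overlapped between the groups, as did those of Pdgfra to Pdgfrb and Tagln to Acta2. In 2-sided exact permutation tests on the log2 ratios p was 0.2, 0.2, 0.2 and 0.9 (adjusted over the 4 ratios, 0.267, 0.267, 0.267 and 0.9), where 3 against 3 libraries cannot go below 0.1.

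Levels between genes were compared per kilobase of exon (union of annotated exons, GENCODE M1). In controls the mean level was highest for Sparc, at 60.7 CPM per kilobase, followed by Tagln (30.9), Acta2 (29.3) and Vim (28.7), which lay within each other's spread. Pdgfrb (12.8), Pdgfra (11.6), Fn1 (8.55) and Des (6.38) came next, and Lox (1.93) and Postn (1.57) were lowest. In knockouts Sparc (276.3 CPM per kilobase), Acta2 (256.4), Tagln (233.4) and Vim (162.7) were again the highest. Fn1 came next at a mean level of 70.4 CPM per kilobase, above Pdgfrb (28.0). Lox (19.3), Pdgfra (16.3), Des (15.2) and Postn (14.9) had similar mean levels. The spread of the knockouts covers the order within each of these sets.

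**Figure D3:**
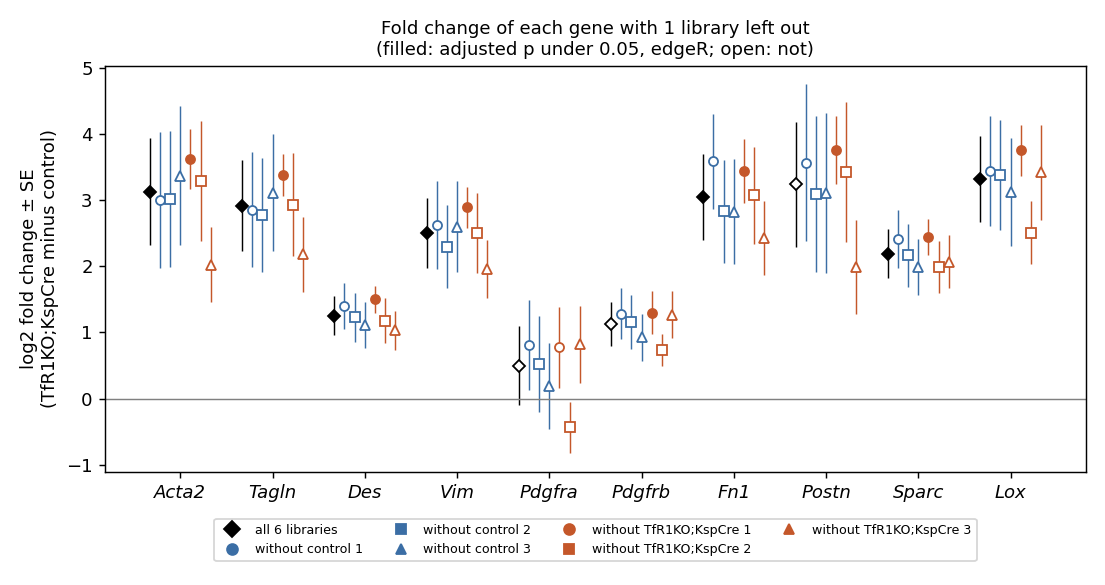
Log2 fold change ± SE of each gene with all 6 libraries (black) and with each control (blue) or TfR1KO;KspCre library (orange) left out; filled markers have an adjusted p under 0.05 in edgeR. The 9 genes other than Pdgfra stay above 0 in every fit, and calls appear with all libraries and without knockout 1.

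To place the 10 genes within their program, 77 related genes in 7 lists were examined in the same fit. The lists were chosen with earlier results of these data known, so their counts describe and do not test. Of the 77 genes, 76 were tested. Of these, 32 were called higher and 0 lower (edgeR), against 10.6% and 6.64% of all genes tested. At an unadjusted p under 0.05, 54 were higher and 0 lower, beside 38.6% of all genes in either direction. DESeq2's Wald test called 53 higher and 0 lower, beside 2601 higher and 2281 lower of all genes (32.2% in either direction). With limma-voom 17 were called higher and 0 lower, beside 1112 higher and 918 lower of all genes (13.4% in either direction). The count was 0 without any 1 control, without knockout 2 and without knockout 3, and 56 without knockout 1, where 34.4% of all genes were called.

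In the list of smooth muscle and pericyte genes 5 of 17 were called higher and 12 were not called, with a median log2 fold change of 1.85. The 5 were Cald1, Tpm1, Notch3, Mcam and Ednra. DESeq2's Wald test called 12 of the 17 and limma-voom 2. Rgs5, a regulator of G protein signaling and a marker of pericytes, was at 90.1, 71.7 and 126.8 CPM in controls and 145.4, 350.1 and 1242 CPM in knockouts (log2 fold change 2.59, SE 0.75, adjusted p 0.0562 by edgeR). Myh11, smooth muscle myosin, was at 33.9, 64.1 and 60.7 CPM in controls and 66.7, 131.7 and 781.9 CPM in knockouts (log2 fold change 2.63, SE 0.90, adjusted p 0.0794 by edgeR). In both, no control reached a knockout and knockout 3 stood far above the others, as for Acta2. Neither Kcnj8 (-0.14) nor Abcc9 (-0.47), which encode subunits of a potassium channel of pericytes, passed on its log2 fold change (adjusted p 0.816 and 0.355 by edgeR).

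In the list of fibroblast and matrix genes 11 of 18 were called higher (16 by DESeq2, 5 by limma-voom), and the median log2 fold change was 2.41. Col1a1 and Col3a1 encode fibrillar collagens. Col1a1 was at 65.3, 33.4 and 24.6 CPM in controls and 171.1, 623.7 and 622.2 CPM in knockouts, and its log2 fold change was 3.52 (SE 0.61, adjusted p 0.0286 by edgeR). Col3a1 had one of 3.36 (SE 0.63; adjusted p 0.0303). The proteoglycan gene Bgn (biglycan) was the most abundant by CPM, at 292.2, 242.4 and 197.9 CPM in controls and 471.1, 1841 and 522.7 CPM in knockouts. It was not called (log2 fold change 1.95, SE 0.56, adjusted p 0.0544 by edgeR).

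Among genes that process and cross-link matrix 5 of 11 tested were called higher (5 by DESeq2, 4 by limma-voom), with a median log2 fold change of 0.25. Of the 5, 3 were relatives of Lox. Loxl1 rose from 18.1 ± 4.14 to 66.2 ± 30.8 CPM and Loxl2 from 27.2 ± 8.68 to 104 ± 48.8 CPM (SD, n = 3 each), with log2 fold changes of 1.87 (SE 0.39) and 1.93 (SE 0.42, adjusted p 0.0326 by edgeR and 0.0335). Loxl3 was also called, whereas Loxl4 had a log2 fold change of -0.17 (edgeR, adjusted p 0.810). The transglutaminase Tgm2, the most abundant of the list by CPM, was at 317.2 ± 13.4 CPM in the controls against 354.9 ± 33.7 CPM in the knockouts (SD, n = 3 each; log2 fold change 0.16, SE 0.16, adjusted p 0.490 by edgeR).

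Of 10 genes of PDGF and TGF-beta signals 4 were called higher (8 by DESeq2, 2 by limma-voom): Pdgfb, Tgfb1, Tgfb3 and Tgfbr2. Pdgfb, the ligand of PDGFR-beta, had a log2 fold change of 0.96 and the ligand gene Tgfb1 one of 1.23 (edgeR, adjusted p 0.0302 and 0.0286). The largest was Tgfb3, at 5.22, 1.94 and 2.34 CPM in controls and 5.94, 26.2 and 28.5 CPM in knockouts (log2 fold change 2.66, SE 0.67, adjusted p 0.0416 by edgeR). Ctgf, which encodes connective tissue growth factor and is named Ccn2 in newer annotations, was at 129.7, 100.4 and 75.5 CPM in controls and 128.7, 734.1 and 288 CPM in knockouts. Knockout 1 lay below control 1, and the gene was not called (log2 fold change 1.91, SE 0.60, adjusted p 0.0669 by edgeR).

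Of 8 receptors for matrix 2 were called higher, Cd44 and Itga5 (5 genes by DESeq2, 2 by limma-voom). Cd44, a hyaluronan receptor carried by leukocytes as well as by mesenchymal and injured epithelial cells, was at 2.94, 3.82 and 3.24 CPM in controls and 25.1, 73.7 and 113.1 CPM in knockouts, which gave 4.40 as its log2 fold change (SE 0.56, adjusted p 0.0271 by edgeR). Itga5, the alpha subunit of the fibronectin receptor, had a log2 fold change of 1.68 (edgeR, adjusted p 0.0271). Its partner Itgb1 (0.64, SE 0.26) and the beta-3 integrin gene Itgb3 (1.90, SE 0.53) were not called (edgeR, adjusted p 0.121 and 0.0510).

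Of 7 genes of actin-linked transcription 3 were called higher, with a median log2 fold change of 0.56. DESeq2's Wald test called 4 of the 7 and limma-voom 0, so that the calls of Myocd, Srf and Mkl2 were lost with limma-voom. Myocd, which encodes the SRF partner myocardin, was at 0.199, 0.470 and 0.120 CPM in controls and 0.932, 2.71 and 5.75 CPM in knockouts (log2 fold change 3.53, SE 0.82, adjusted p 0.0365 by edgeR). Its levels followed the order of Acta2 among the knockouts. Srf itself (0.56) and Mkl2 (0.67) were called, Mkl1 was not (0.71, SE 0.21, adjusted p 0.0565 by edgeR), and Tead1, whose product binds the CATTCC element, had a log2 fold change of 0.06 (SE 0.22; adjusted p 0.853). Of 5 partners of intermediate filaments 2 were called higher, Nes and Plec (3 genes by DESeq2, 2 by limma-voom). Plec, a linker of filaments to the membrane, was at 142.1 ± 18.4 CPM in the controls against 360.6 ± 136 CPM in the knockouts (SD, n = 3 each; log2 fold change 1.34, SE 0.29, adjusted p 0.0329 by edgeR), and Synm had a log2 fold change of 1.97 (SE 0.63) that did not pass (adjusted p 0.0693).

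**Figure D4:**
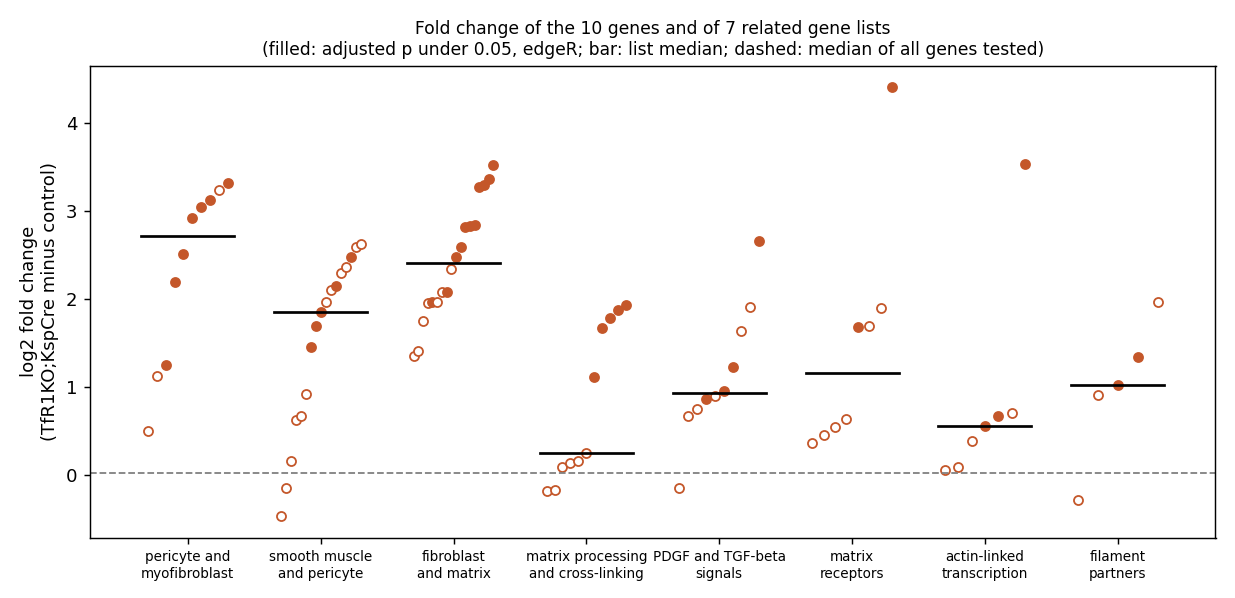
Log2 fold change of the 10 pericyte and myofibroblast genes and of the 76 tested genes of 7 related lists; filled points were called higher (adjusted p under 0.05, edgeR), bars give each list's median and the dashed line the median of all genes tested. The fibroblast and matrix list has the highest median of the 7 (2.41) and the matrix processing list the lowest (0.25).

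Markers of other kidney cells also differed between the groups, with an order among the knockouts that varied by list. The summed CPM of 6 macrophage markers was 162 to 169.1 in controls and 391.7 to 1217 in knockouts, highest in knockout 2 and lowest in knockout 1, and 5 of the 6 were called higher. Csf1r, the most abundant of the 6 in controls, overlapped between the groups and was not called (log2 fold change 0.28, adjusted p 0.601 by edgeR). The sum of 6 markers of injured tubules was 1082 to 3102 in controls and 4180 to 7680 in knockouts, lowest in knockout 3, with 5 of 6 called higher. Most of that sum was Spp1, at 1031 to 3034 CPM in controls and 3598 to 7051 CPM in knockouts, the marker that was not called (adjusted p 0.0718 by edgeR). Of the called ones, Lcn2 and Sox9 were highest in knockout 3, Krt18 and Krt20 in knockout 2 and Havcr1 in knockout 1. For 6 podocyte markers the sum was 541.6 to 675 in controls and 679.2 to 976.3 in knockouts, lowest in knockout 2, with 2 of 6 called higher. For 6 endothelial markers the groups overlapped, at 345.3 to 702.9 and 617 to 725.7, and 0 of 6 were called (edgeR; 2 had an unadjusted p under 0.05, DESeq2's Wald test called 1 and limma-voom 0). Conversely, 7 tubule transport and adhesion genes summed to 15940 to 20232 CPM in controls and 3402 to 12382 CPM in knockouts, highest in knockout 1, with 2 of 7 called lower. The 2 were the proximal tubule genes Lrp2 and Slc34a1 (log2 fold change -2.42 and -2.12, adjusted p 0.0326 and 0.0432 by edgeR). Umod, Slc12a1, Slc12a3, Aqp2 and Cdh16 overlapped between the groups and were not called (edgeR, adjusted p 0.222 to 0.904). The part of these cells in the levels of Vim, Fn1 and Sparc was not tested. The 6 skeletal muscle markers summed to at most 4.56 CPM in controls and 2.76 CPM in knockouts, with at most 41 counts of any of them in a library.

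Finally, genes were ranked by their likeness to the mean standardised log2 CPM of the 10 genes over the 6 libraries, as a description with no test. Among 11328 other genes whose log2 CPM averaged 3 or more, the 5 most alike were Tirap, Loxl1, Kank2, Col5a1 and Ccdc80, with Pearson's r of 0.999, 0.999, 0.998, 0.997 and 0.997. These 6 values share the difference between groups, which any gene with separate groups follows. Col5a1 encodes a fibrillar collagen chain and Loxl1 a lysyl oxidase, and both were called higher. Tirap differed less, with a log2 fold change of 0.79 (SE 0.22, adjusted p 0.0510 by edgeR). Within the 10 genes, the likeness of each to the mean of the other 9 was lowest for Pdgfra, at r = 0.353, and lay between 0.871 (Pdgfrb) and 0.987 (Des) for the rest.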

How the data were processed

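RNA from 6 whole kidneys (3 control, 3 knockout) was sequenced after poly-A selection. Per the methods of the study and the submitters' processing notes, the authors called bases with CASAVA 1.8.2, trimmed with Trimmomatic, aligned single-end reads to mm9 with TopHat2 2.0.11, and ran HTSeq on uniquely mapped reads to obtain a count for each gene. The deposited values are raw counts, with no normalization. The gene annotation and strand setting are not given in the sources used here.

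Groups and replicate numbers were taken from sample titles. Genes were kept by filterByExpr (minimum count 10, minimum total 15), normalised by TMM and tested over all 6 libraries with edgeR 4.0.16 (glmQLFit and glmQLFTest, package default version) in R 4.3.3, with Benjamini-Hochberg adjustment over 15171 genes and a threshold of 0.05. The SE is the log2 fold change divided by the square root of F. Log2 CPM used a prior count of 2. Simulated data on 15171 genes, with 99 and 98 tested genes changed by 2 and 3 on the log2 scale, gave 75.8% and 95.9% called. All of these were in the right direction. Of the unchanged genes 9 were also called, and 1 gene was called when no change was simulated. The simulation gave every knockout the same fold change for a gene. The real knockouts differed among themselves, so these rates need not hold for them. The alternatives used DESeq2 1.42.0, limma 3.58.1 and the settings of the closing section.

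The 10 genes and all lists were chosen with earlier results of these data known. Named related genes are, per list, the 2 of largest absolute log2 fold change and the 1 of highest mean CPM; others named were chosen after their values were seen. Coordinates are from GENCODE M1 (NCBIM37, mm9), and promoter windows from RefSeq (GRCm38.p6), which were not converted. Replicates of a group differed by more than sampling noise (chi-square per degree of freedom 52.9 to 125.5), so each counted as 1 sample. Depth was 11501053 to 21001341 counts.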

Additional observations from a re-analysis of the deposited data

How the results depend on the processing

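With all libraries, 7 of the 10 genes, 32 of 76 related genes and 2612 of all genes were called. Other scalings, other filters, the newer quasi-likelihood version and a 2-fold minimum kept each count within 1.5 times. With limma-voom 4 of the 10 and 17 related genes were called, and with DESeq2's Wald test 53 related genes and 4882 of all genes; the cause was not tested. The Xist-to-Y covariate gave 0, 0 and 0 in edgeR, with 9, 46 and 4221 at an unadjusted p under 0.05. Fits that left out 1 library gave 0 to 9 of the 10, 0 to 56 related genes and 0 to 5332 of all genes. For replicates 1, 2 and 3, deviations of control and knockout from their own group mean correlated at -0.129, 0.0116 and 0.215. These values do not show pairing by number and, without mismatched numbers set beside them, cannot exclude it. A replicate block gave 0, 0 and 0 calls, with 8 of the 10, 44 related and 5432 of all genes at an unadjusted p under 0.05 (edgeR). Library size alone shifted the median of all genes by 0.27 and called 9 of the 10. It put 2985 of its 3647 called genes higher, against 1604 of 2612 by TMM. Among values for single genes, 100 kept direction and side of the threshold, 7 passed newly, 52 no longer passed and 1 reversed. The log2 fold change of Pdgfra reversed without knockout 2, and ran from -0.44 to 0.82 over the fits without 1 library. The lowest count of any of the 10 genes in a library was 108.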

Other observations

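Genes of juxtaglomerular and mesangial cells, the other specialised mural cells of the kidney, were not described above as a list, though Itga8 was counted among the matrix receptors. Serpine2, a serine protease inhibitor, was at 36.7, 25.7 and 30.6 CPM in controls and 89.9, 149.7 and 169.8 CPM in knockouts (log2 fold change 2.14, edgeR adjusted p 0.0271). Gata3, a transcription factor of mesangial cells and of the collecting duct, was at 33.8, 30.9 and 35.1 CPM in controls and 51.3, 69.9 and 57.8 CPM in knockouts (log2 fold change 0.84, edgeR adjusted p 0.0295). Itga8, an integrin of mesangial cells, was not called (log2 fold change 0.36; adjusted p 0.485), with knockout 1 below all controls at 21.7 CPM. Akr1b7, an aldo-keto reductase of renin cells, was at 4.64 to 6.66 CPM in controls and 10.1, 6.47 and 24.5 CPM in knockouts and was not called (log2 fold change 1.32; adjusted p 0.0995). Ren1 was listed at 0 counts in all 6 libraries. As the gene annotation used for counting is not given in the sources used here, this 0 is not read as absence of its transcript.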
